A study of Rattus norvegicus with 132 samples.

Results

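The corticomedullary junction of rat kidneys in the RM group was compared with the same area in Sham kidneys, by spatial profiling of 17 regions of interest (ROIs) of 132 in the series. The ROIs were those labelled RM and corticomedullary junction (8 ROIs) and those labelled Sham and corticomedullary junction (9 ROIs). Each ROI was an area picked by hand on a formalin-fixed, paraffin-embedded kidney section, in which gene probes carry barcodes that are cut off by light and counted by sequencing (GeoMx). The series covers RM-HS, RM, HS and Sham rats, 3 per group, and 4 kidney areas: junction, cortex, glomeruli and medulla. Neither RM nor HS is spelled out in the labels. In trauma studies of the kidney these letters usually mean rhabdomyolysis (breakdown of skeletal muscle) and hemorrhagic shock, which is not stated there. The labels also give no strain, sex, age, dose or time after injury. Sham rats were the controls, and what their procedure involved is not given in the labels. The probes were designed for mouse transcripts and were hybridised to rat tissue and signal is compared only within a gene.

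The corticomedullary junction holds the straight end of the proximal tubule, whose cells reclaim solutes from the filtrate, make glucose from lactate and amino acids, and burn fatty acids for energy. This stretch is known as a site of tubular damage in acute kidney injury. Injured proximal tubule cells are known to put Havcr1 (kidney injury molecule 1) on their surface, to store neutral lipid in droplets coated by Plin2, and to lower enzymes of glucose production.

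All 8 RM ROIs lay on plate C, and of the Sham ROIs 6 lay on plate C and 3 on plate E. Recovered reads ranged from 1103587 to 2305964 per RM ROI and from 546268 to 1524666 per Sham ROI. The negative-probe signal, which measures background, was 16.9 to 25.8 in RM ROIs and 18.2 to 26.6 in Sham ROIs and was not subtracted, so fold changes of dim genes are understated. Correlations of log2 signal were 0.941 to 0.977 between RM ROIs, 0.820 to 0.899 between RM and Sham ROIs and 0.861 to 0.956 between Sham ROIs. The area label was borne out by the straight proximal tubule gene Slc7a13, a cystine and glutamate carrier. Its median was 1957 in RM and 1648 in Sham junction ROIs, against 45.3 in RM and 55.1 in Sham cortex and 45.0 in RM and 56.7 in Sham medulla. Which ROI came from which animal is not in the labels. Since 8 or 9 ROIs of a group came from 3 rats, some share an animal, and every p-value below, taken over ROIs, is too small.

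Of 8827 genes tested, 498 were called in RM against Sham at an adjusted p under 0.05 (limma over all ROIs, Benjamini-Hochberg), which is 5.64% of them. Of these, 429 rose (4.86%) and 69 fell (0.782%), while the median log2 change of all tested genes was -0.12. A change above 0, called or not, was found in 31.8% of all tested genes. With quantile normalization in place of the Q3 scaling, 543 rose and 234 fell. Rises were also larger: 136 rises and 13 falls exceeded 2-fold, and 24 rises and 1 fall exceeded 4-fold. In 359 of the 498 called genes the RM and Sham ROIs did not overlap. Over all tested genes, every RM ROI lay above every Sham ROI in 449 (5.09%) and below in 145 (1.64%). All 498 kept their direction and were called when only the RM and Sham junction ROIs of plate C were fitted. That smaller fit estimates the spread from these ROIs alone and called 40.5% of all genes (14.9% as rises, 25.7% as falls). Its calls therefore set a low bar, and the changes it gives are used below to show size. A fit of the junction ROIs of all injury groups called 616 genes, and a fit of the RM and Sham junction ROIs of both plates called 3661. The reason for this gap was not tested. A count model, edgeR on recovered reads, called 29.2% (18.3% as rises, 11% as falls). In bulk signal from an ROI, fewer cells of a type and less RNA per cell cannot be told apart.

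**Figure D1:**
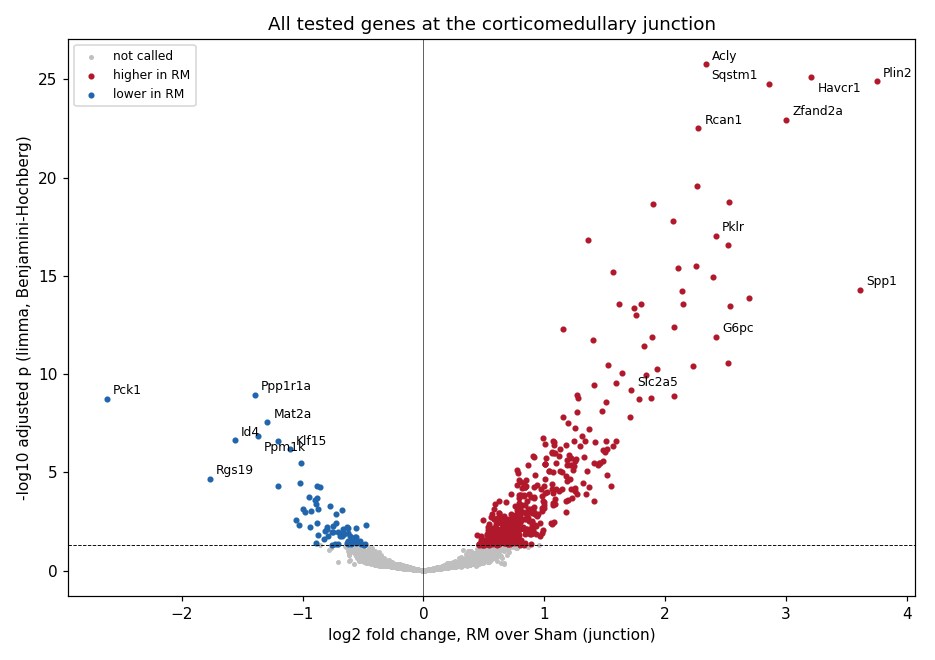
All 8827 tested genes, with the log2 fold change of RM over Sham at the junction on the horizontal axis and -log10 of the adjusted p on the vertical axis. The dashed line marks an adjusted p of 0.05. Acly, Havcr1, Plin2 and Sqstm1 had the lowest adjusted p, and Pck1 had the largest fall, at -2.62.

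The largest rise was that of Plin2, the coat protein of lipid droplets. Plin2 signal had a lowest, median and highest value of 409, 700.4 and 994 in RM ROIs, against 35.8, 47.8 and 55.3 in Sham ROIs. Triplets of values below keep this order. No ROI of either group came near the other group, and 4 of 9 Sham values exceeded 2 times the negative probe. The log2 fold change was 3.75 ± 0.26 (SE), or 13.5-fold, with an adjusted p of 1.26e-25, and it was 3.82 against the plate C Sham ROIs alone. Acly, the enzyme that makes cytosolic acetyl-CoA for fatty acid and sterol synthesis, had 214, 265 and 342 in RM ROIs, against 45.5, 54.3 and 62.4 in Sham ROIs. The groups were again fully apart, with a log2 change of 2.34 ± 0.16 (adjusted p = 1.68e-26) and 2.36 on plate C. G0s2, an inhibitor of the main lipase of lipid droplets, rose less, by 0.95 ± 0.22 (adjusted p = 0.00126). Its RM values of 63.8, 116 and 150 overlapped the Sham values of 48.6, 59.8 and 74.7, and its call was lost when each well run was averaged.

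Plin2 and Acly did not move with the lists they belong to. Of 16 tested lipid storage genes 2 rose (Plin2 and G0s2) and 0 fell, and the list's median log2 change was -0.05. Plin3 and Plin5, other droplet coat proteins, had changes of -0.17 ± 0.19 and -0.30 ± 0.18 and were not called. Of 12 fatty acid and sterol synthesis genes Acly alone was called, with a list median of 0.06. Acaca, which makes malonyl-CoA from the acetyl-CoA that Acly supplies, stood at medians of 42.9 in RM and 42.1 in Sham ROIs. Of 15 fatty acid oxidation genes 0 rose and 1 fell, with a median of -0.01. That gene was Cpt1a, which admits long-chain fatty acids to mitochondria: its values were 55.6, 64.4 and 71.9 in RM ROIs, against 90.6, 103 and 119 in Sham ROIs. Its groups did not overlap, but the change of -0.67 ± 0.19 (adjusted p = 0.0143) lost its call in 5 of 24 alternatives.

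Genes of sugar handling moved in opposite directions. Of 12 tested genes of gluconeogenesis and fructose use 5 rose and 1 fell, with a median log2 change of 0.50. G6pc, which releases free glucose at the last step of gluconeogenesis, had 199, 316 and 517 in RM ROIs, against 42.6, 56.9 and 75.8 in Sham ROIs. The lowest RM ROI was above the highest Sham ROI, with a change of 2.42 ± 0.28 (adjusted p = 1.24e-12).

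Carriers and enzymes of fructose use rose too. Slc2a5, the fructose transporter GLUT5 of the apical membrane, had 103, 136 and 150 in RM ROIs, against 26.5, 35.7 and 47.7 in Sham ROIs, and only 2 of 9 Sham ROIs were over 2 times the negative probe. Its log2 change was 1.72 ± 0.22 (adjusted p = 6.62e-10). Slc2a2, the basolateral transporter GLUT2, rose by 0.91 ± 0.19 (adjusted p = 0.000182), and Tkfc, the triokinase that phosphorylates glyceraldehyde from fructose, by 1.23 ± 0.26 (adjusted p = 0.0002). Both were without overlap between the groups. Khk, the ketohexokinase that starts fructose use, had medians of 499.7 in RM and 344 in Sham ROIs and was not called (0.54 ± 0.20, adjusted p = 0.115). Pcx, which feeds oxaloacetate to Pck1, and Fbp1, which acts between Pck1 and G6pc, had changes of 0.36 ± 0.25 and 0.06 ± 0.21 and were not called.

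Pck1, the enzyme that commits oxaloacetate to gluconeogenesis, had the largest fall of all genes. Its values were 42.9, 58.7 and 109 in RM ROIs, against 294, 511 and 559 in Sham ROIs. The groups were far apart, and within RM the ROIs of the third well run (105 and 109) stood above the other 6 (43 to 61). The log2 change was -2.62 ± 0.35 (adjusted p = 1.83e-09) and -2.76 on plate C. Pklr, the pyruvate kinase of liver and proximal tubule, which consumes the phosphoenolpyruvate that Pck1 makes, had 800.2, 1139 and 1536 in RM ROIs, against 116, 226 and 346 in Sham ROIs. It rose by 2.42 ± 0.22 (adjusted p = 9.16e-18), although its Sham level differed between well runs, with means of 312, 124 and 248 in runs 1, 2 and 3.

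**Figure D2:**
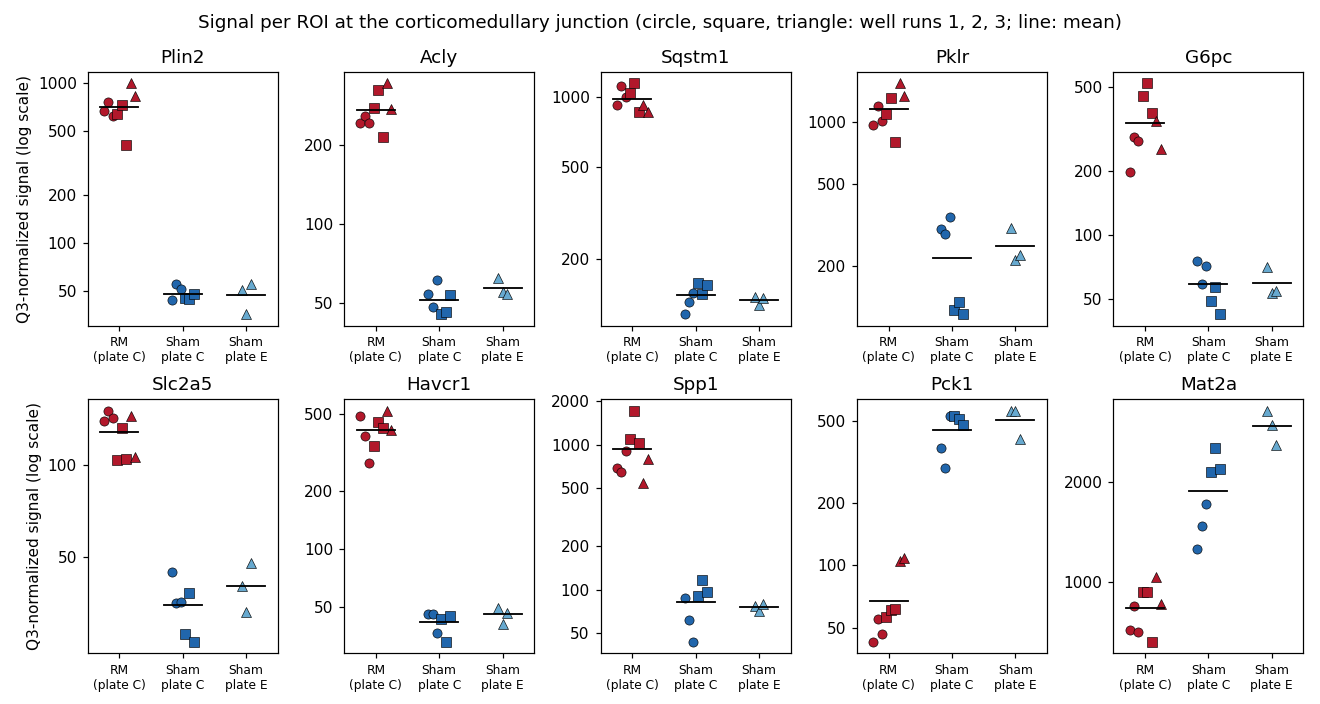
Q3-normalized signal (log scale) of 10 genes in each junction ROI, for RM ROIs (all plate C), Sham ROIs of plate C and Sham ROIs of plate E. Symbols give the well run and lines the mean. In all 10 genes the 8 RM ROIs lay entirely above or, for Pck1 and Mat2a, entirely below the 9 Sham ROIs, and the Sham ROIs of both plates lay on the same side.

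The promoters of Pklr and Pck1, which moved in opposite directions, are shown because both are classical models of nutrient and hormone control. The L-type pyruvate kinase promoter is a known binding site of the carbohydrate response factor ChREBP, and the Pck1 promoter of CREB, which acts downstream of cAMP. Sequences are those of RefSeq on build GRCr8, from 250 bases before to 50 bases after the annotated start, 5′ to 3′ on the plus strand. Capitals mark the matches a search of both strands found: CANGNG and CNCNTG with 5 bases between them, the carbohydrate response element, at -168 to -152 of Pklr (chr2:176841014-176841313), and TTACGTCA, the cAMP response element of Pck1, at -93 to -86 of Pck1 (chr3:182348322-182348621).
Pklr: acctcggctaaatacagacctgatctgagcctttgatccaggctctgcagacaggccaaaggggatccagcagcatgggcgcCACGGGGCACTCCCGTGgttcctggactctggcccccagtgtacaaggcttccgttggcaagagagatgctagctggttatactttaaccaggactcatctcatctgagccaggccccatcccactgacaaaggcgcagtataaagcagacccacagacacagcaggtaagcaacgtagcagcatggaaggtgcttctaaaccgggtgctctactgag
Pck1: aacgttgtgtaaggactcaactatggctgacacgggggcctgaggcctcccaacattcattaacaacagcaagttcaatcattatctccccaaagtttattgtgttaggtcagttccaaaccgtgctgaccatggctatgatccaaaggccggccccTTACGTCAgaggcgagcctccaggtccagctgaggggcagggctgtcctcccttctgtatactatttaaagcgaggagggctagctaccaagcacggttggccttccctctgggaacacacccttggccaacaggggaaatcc
The first motif was found in 0.562% of 33469 rat promoters of the same length and the second in 0.807%. Of 84 named genes with a promoter in the table, Pklr alone held the carbohydrate response element in this window. A match describes the letters and is not evidence of binding in these samples.

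Injury markers of the tubule rose with large margins. Of 14 tested genes of tubular injury and repair 9 rose and 0 fell, with a median log2 change of 0.86, and in 10 of them every RM ROI lay above every Sham ROI. Havcr1 had 277, 419 and 519 in RM ROIs, against 33.2, 45.2 and 49.7 in Sham ROIs. All 8 RM ROIs were high and all Sham ROIs low, 4 of 9 over 2 times the negative probe, and the change was 3.21 ± 0.22, or 9.26-fold (adjusted p = 7.12e-26). Spp1, the secreted matrix protein osteopontin, had 542, 853 and 1726 in RM ROIs, against 43.8, 79.6 and 116 in Sham ROIs. It rose by 3.61 ± 0.37 (adjusted p = 5.08e-15), with the highest RM values in the second well run (mean 1288, against 748 and 674 in the first and the third).

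Smaller rises came from the other members. S100a11, a calcium-binding protein of spreading epithelia, rose by 1.57 ± 0.25, the stress-induced secreted factor Gdf15 by 1.5 ± 0.24, the secreted chaperone Clu by 1.22 ± 0.20 and Sox9, a transcription factor of tubular repair, by 1.12 ± 0.22 (adjusted p from 4.83e-07 to 9.17e-05). Their groups did not overlap. Cdkn1a, the cell cycle inhibitor p21, rose by 0.83 ± 0.17 (adjusted p = 0.000167). Of 7 growth arrest genes 4 rose, Gadd45a most (2.14 ± 0.22, adjusted p = 5.57e-15). Of 3 tested cell cycle genes 0 were called in limma, 0 had an unadjusted p under 0.05 and 0 were called in edgeR. In the plate C fit, which called 25.7% of all genes as falls, 1 of the 3 fell. The keratins Krt8 and Krt18, which rise in many injured tubules, had changes of 0.14 and -0.01 and were not called.

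Genes of the oxidative stress response rose in number. Of 16 NRF2 and oxidative stress genes 9 rose and 0 fell (median 0.83). Sqstm1, the autophagy receptor p62 and a target of NRF2, had 860, 963 and 1143 in RM ROIs, against 116, 137 and 159 in Sham ROIs. The groups were fully apart, with a rise of 2.86 ± 0.20 (adjusted p = 1.69e-25). The metallothioneins, which bind zinc and copper, rose by 2.52 ± 0.23 (Mt2) and 1.74 ± 0.19 (Mt1), and Mt2 had 2350, 3144 and 4373 in RM ROIs, against 528, 617 and 664 in Sham ROIs. Sod1 and Sod2, superoxide dismutases of cytosol and mitochondria, rose by 1.25 ± 0.25 and 0.86 ± 0.20 (adjusted p = 5.95e-05 and 0.00159). Other textbook targets of NRF2 were not called: Nqo1 had 0.04 ± 0.23 and lay at background in every ROI, and Gclc had -0.07 ± 0.27. Gclm rose by 0.89 ± 0.29 (adjusted p = 0.0428), a call lost in 10 of 24 alternatives.

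Iron storage genes rose without the rest of their list. Of 11 heme and iron genes 2 rose, namely the ferritin chains Ftl1 and Fth1, and the median was 0.11. Ftl1 had 1314, 1520.4 and 2077 in RM ROIs, against 277, 469 and 863 in Sham ROIs, and Fth1 had medians of 4064 in RM and 1766 in Sham ROIs. The groups did not overlap for Ftl1 (1.93 ± 0.24, adjusted p = 5.66e-11). For Fth1 (1.45 ± 0.25, adjusted p = 4.05e-06) they all but touched, at 2608.66 in the lowest RM ROI and 2608.62 in the highest Sham ROI. Sham values of Fth1 were 1905 to 2609 on plate E. On plate C they were 1075 to 1354 in the first run and 1722 to 1838 in the second. The Fth1 call was lost when each well run was averaged. Tfrc, the transferrin receptor, had -0.18 and was not called.

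Heat shock genes rose in part. Of 13 tested members 5 rose (median 0.61). Zfand2a, a proteasome-associated protein induced by arsenite and heat, had 251, 369 and 728 in RM ROIs, against 29.6, 44.0 and 54.7 in Sham ROIs. It rose by 3.00 ± 0.22 (adjusted p = 1.14e-23), most in the third RM well run (mean 598, against 301 and 429 in the first and the second). Cryab, a small heat shock protein, rose by 2.23 ± 0.27, and the chaperones Dnaja1, Hsp90ab1 and Hspe1 by 1.31 ± 0.20, 1.09 ± 0.23 and 0.78 ± 0.23 (adjusted p from 3.82e-11 to 0.022). Hspb1 and Hsph1, which many heat-stressed cells induce, had -0.12 and 0.07. The Dnaja1 promoter is shown because it is a risen chaperone gene with a heat shock element in its window, the letters GAA, TTC and GAA with 2 bases between them: the match, in capitals, lies at +10 to +22 (RefSeq, build GRCr8, chr5:60638154-60638453, plus strand).
Dnaja1: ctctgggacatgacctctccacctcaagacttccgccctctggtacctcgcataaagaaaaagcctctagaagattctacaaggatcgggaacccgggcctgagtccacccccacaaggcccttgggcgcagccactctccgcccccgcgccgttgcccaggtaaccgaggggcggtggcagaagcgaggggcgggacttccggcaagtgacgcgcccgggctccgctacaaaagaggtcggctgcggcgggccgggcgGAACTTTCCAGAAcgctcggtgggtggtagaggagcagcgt
This motif, the binding unit of HSF1, occurred in 0.798% of rat promoters of the same length and in 3 of 84 named genes with a promoter in the table (Dnaja1, Sod1 and Hspe1).

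Of 14 unfolded protein and integrated stress genes 5 rose (median 0.25). Atf4, the translation-controlled master factor, had 199.8, 219 and 255 in RM ROIs, against 53.2, 63.6 and 72.0 in Sham ROIs. The 2 ranges were far apart (1.90 ± 0.16, adjusted p = 2.27e-19). Atf3 rose by 1.52 ± 0.24 and Ppp1r15a, a phosphatase subunit that ends the response, by 1.28 ± 0.17. Asns, the asparagine synthetase, rose by 0.93 ± 0.24 (adjusted p = 0.00527). Hspa5, the main chaperone of the endoplasmic reticulum, rose by 1.08 ± 0.27 (adjusted p = 0.00332), but by 0.55 and without a call when the first Sham well run was left out. Ddit3, another transcription factor of the response, had -0.05 and was not called.

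Immediate early genes had the highest median of the 34 lists, a log2 change of 1.0, with 14 of 24 tested members risen and 0 fallen. Btg2, an antiproliferative gene, had 328, 436 and 843 in RM ROIs, against 67.7, 76.9 and 86.8 in Sham ROIs, with the third RM run highest (mean 819), and rose by 2.53 ± 0.22 (adjusted p = 1.68e-19). Zfp36, which speeds the decay of cytokine mRNAs, rose by 2.26 ± 0.19, the transcription factor Myc by 2.26 ± 0.22, Klf6 by 2.11 ± 0.20 and Fosl2 by 2.06 ± 0.18, all with no overlap (adjusted p from 2.60e-20 to 3.81e-16). Fosb, Egr3 and the 3 Nr4a genes of the list were not called, with changes from -0.21 to -0.12. Rcan1, an inhibitor of calcineurin outside the lists, had 210.0, 232 and 317 in RM ROIs, against 49.96, 51.8 and 54.96 in Sham ROIs. All RM ROIs were above all Sham ROIs (2.27 ± 0.17, adjusted p = 3.01e-23). Tsc22d1, a leucine zipper protein of TGF-beta signalling, rose by 2.54 ± 0.27, and Sat1, which acetylates polyamines for breakdown, by 2.40 ± 0.24.

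Of 13 matrix genes 4 rose, among them Thbs1, a secreted activator of TGF-beta, by 2.52 ± 0.31 (RM 358, 446 and 583, Sham 55.0, 74.2 and 119), the protease inhibitor Timp3 by 1.55 ± 0.30, and the protease Adamts1 by 1.24 ± 0.19. The collagens Col1a2 and Col3a1 had -0.24 and -0.01. Of 10 cytokine response genes 4 rose, among them Stat3 (1.53 ± 0.19) and the clotting starter F3 (1.48 ± 0.24), while Tnf and C3 had -0.21 and -0.25. Of 15 hypoxia and glycolysis genes 4 rose, Ndrg1 most (1.48 ± 0.25), while Vegfa and Slc2a1 had 0.31 and 0.29 and were not called. Of 7 glucocorticoid response genes Mt2 and Igfbp1 (1.52 ± 0.28) rose and Klf15 fell.

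Of 30 cytosolic ribosome genes 15 rose and 0 fell, with a median of 0.53, and called changes ran from 0.44 (Rps15) to 0.79 (Rps4x and Rps6). The groups did not overlap in 4 of the 30, and 25 rose and 1 fell in edgeR. Over all tested genes edgeR called 18.3% as rises and 11% as falls, and the plate C fit called 14.9% and 25.7%. Of 25 proteasome genes 24 had a change above 0 and 5 rose (median 0.32), led by Psmb1 (0.78 ± 0.22), while 23 rose in edgeR and 19 in the plate C fit. The calls of all 5 of these, and of Rps3, Rps4x, Rps6, Rps23 and Rplp2, were lost when each well run was averaged. Of 16 oxidative phosphorylation genes all 16 had a change above 0 (median 0.39), and 7 rose in edgeR and 14 in the plate C fit. In limma over all ROIs 2 rose, Atp5b by 0.84 ± 0.27 and Sdhb by 0.63 ± 0.20 (adjusted p = 0.0487 and 0.0432). The Atp5b and Sdhb calls were lost in 13 and 11 of 24 alternatives, and the Atp5b change was 0.49 without the first Sham well run. Of 19 amino acid genes 2 rose, Sat1 most, and 2 fell (Mat2a and the proline dehydrogenase Prodh, whose change was -0.66 ± 0.19), and of 11 drug metabolism genes 3 rose, led by the bile salt and conjugate exporter Abcc2 (1.21 ± 0.20).

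**Figure D3:**
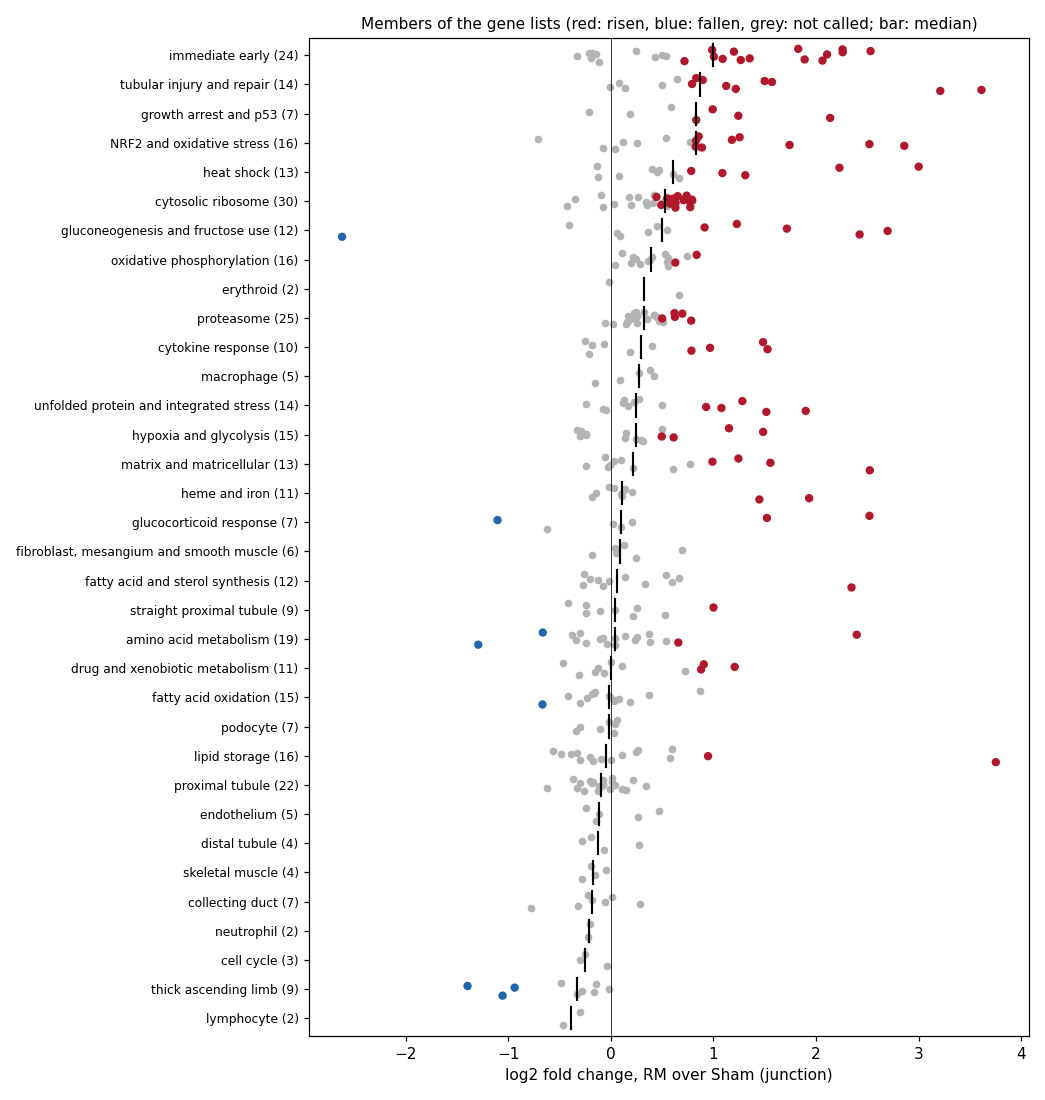
Log2 fold change, RM over Sham at the junction, of every tested member of 34 gene lists, with red points risen, blue points fallen and grey points not called. Black bars are list medians, and the count of tested members is in brackets. Immediate early genes had the highest median (1.0) and 14 of 24 members risen, and the thick ascending limb list had 3 of 9 members fallen.

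Mat2a and Id4 were among the largest falls besides Pck1. Mat2a, which makes the methyl donor S-adenosylmethionine, had 659, 851 and 1034 in RM ROIs, against 1256, 2191 and 3290 in Sham ROIs. The groups did not overlap (-1.29 ± 0.19, adjusted p = 2.86e-08), and the Sham mean was higher on plate E (2957) than in the plate C runs (1479 and 2291). On plate C alone the change was -1.15. Id4, an inhibitor of helix-loop-helix factors, had 36.9, 50.8 and 57.6 in RM ROIs, against 101, 156 and 166 in Sham ROIs. It fell by 1.56 on the log2 scale (SE 0.24, adjusted p = 2.37e-07), and 6 of 8 RM values were over 2 times the negative probe.

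Ppm1k, the phosphatase that switches on breakdown of branched-chain amino acids, had 59.1, 92.4 and 159.5 in RM ROIs, against 192, 250.1 and 346 in Sham ROIs. No RM ROI reached the lowest Sham ROI (-1.37 ± 0.21, adjusted p = 1.43e-07). Klf15, a glucocorticoid-controlled activator of amino acid breakdown and gluconeogenesis, had 31.5, 39.1 and 42.7 in RM ROIs, against 73.2, 86.4 and 109 in Sham ROIs. Only 1 of 8 RM values exceeded 2 times the negative probe (-1.10 ± 0.18, adjusted p = 6.67e-07). Gramd1b, a sterol carrier between membranes, fell with no overlap by 1.2 on the log2 scale (SE 0.23). The aldo-keto reductase Akr1c19 and Camk2n1, an inhibitor of calcium/calmodulin kinase, had -1.2 ± 0.19 and -1.02 ± 0.17, also with no overlap.

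A few falls rested on uneven Sham ROIs. Rgs19, a regulator of G-protein signalling, had 148, 182 and 327 in RM ROIs, against 147, 351 and 3361 in Sham ROIs. The groups overlapped, and the value of 3361 came from 1 ROI of the second Sham run, whose other ROIs had 276 and 351. The change of -1.77 ± 0.33 (adjusted p = 2.14e-05) kept its direction and call without that run. The plate C Sham ROIs then left, those of the first run, had 1141, 641 and 418. On plate E the Sham ROIs had 147, 170 and 323, close to the RM values. Epha3 and Setdb1, a receptor kinase and a histone methyltransferase, had -1.0 ± 0.22 and -0.98 ± 0.23. Their plate E Sham means, 29.8 and 73.1, were close to the RM means of 35.5 and 67.3, and both calls were lost without the plate term and without the first Sham run. Smim22, a small membrane protein, had -1.03 ± 0.27 and -0.46 without the first Sham run.

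**Figure D4:**
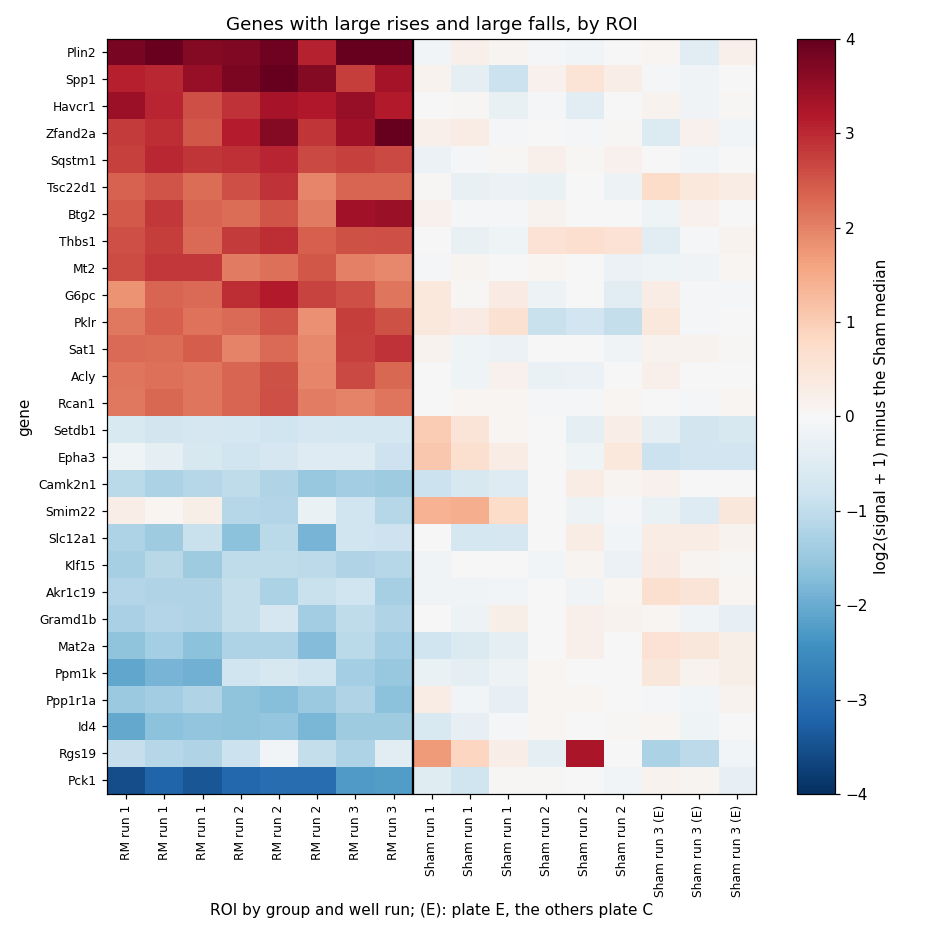
Genes from among the largest called rises and falls (down the page) in each junction ROI (across, RM left of Sham, with the well run below and (E) for plate E). Colour is log2(signal + 1) minus the Sham median. The risen genes were high in all 8 RM ROIs, and Rgs19, Epha3, Setdb1 and Smim22 varied among the Sham ROIs.

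Markers of the thick ascending limb, a segment that reaches the junction from the medulla, moved with the comparison. Slc12a1, its sodium, potassium and chloride cotransporter, had 84.6, 137 and 175 in RM ROIs, against 187, 307 and 379.6 in Sham ROIs. The groups did not overlap (-1.06 ± 0.26, adjusted p = 0.00254). Egf, its secreted growth factor, and Ppp1r1a, an inhibitor of protein phosphatase 1, had -0.94 ± 0.25 and -1.40 ± 0.19, also with no overlap. The Slc12a1 and Egf calls were lost when each well run was averaged and without the second RM or the second Sham run, and the Ppp1r1a call was kept throughout. These 3 were called of 9 tested markers, whose median was -0.33, and all 9 had a change below 0. Most tested genes also had a change below 0, since 31.8% of all of them lay above it. Summed signal of the 9 markers was 541 to 753 in RM ROIs, against 885 to 1363 in Sham ROIs. No marker of this list was at 0, and Cldn16 and Bsnd were at background in both groups. The part of this segment's share of the ROIs in the other falls was not tested.

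Of 22 tested proximal tubule markers 0 were called in limma (median -0.09), 1 had an unadjusted p under 0.05, and 0 were called in edgeR. Their summed signal was 2920 to 4175 in RM ROIs, against 2677 to 4853 in Sham ROIs. Slc34a1, the phosphate transporter of the early segments, had medians of 170.2 in RM and 238 in Sham ROIs (-0.27 ± 0.26, adjusted p = 0.619). For Slc22a6, an organic anion transporter, the RM ROIs all lay below the Sham ROIs (-0.62 ± 0.30), but the change was not called at an adjusted p of 0.307. Of 9 straight proximal tubule markers Slc17a3, a urate transporter, rose (1.0 ± 0.21, adjusted p = 0.000329), with overlapping groups, and the median was 0.04. In edgeR 3 of the 9 rose and 0 fell, and in the plate C fit 4 rose and 1 fell. Their summed signal was 6352 to 8991 in RM ROIs, against 4393 to 8038 in Sham ROIs. In the plate C fit, 1 of the 22 proximal tubule markers rose and 5 fell. Over all genes, that fit called 14.9% as rises and 25.7% as falls, and edgeR called 18.3% and 11%.

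Markers of other cells gave 0 calls in limma over all ROIs. This held for distal tubule (4 genes), collecting duct (7), podocytes (7), endothelium (5), fibroblasts, mesangium and smooth muscle (6), macrophages (5), neutrophils (2), lymphocytes (2), erythroid cells (2) and skeletal muscle (4). Most of these genes were dim. Of the podocyte, neutrophil, lymphocyte and muscle genes, 0 were over 2 times the negative probe in all RM or in all Sham ROIs. Of the endothelial, fibroblast-list and macrophage genes, 1 each was so in all RM ROIs and 0 in all Sham ROIs. Other members, among them Cd68, Pecam1, Nphs1, S100a8 and Cd3d, were not measured. The lack of calls therefore cannot show that these cells were unchanged. An unadjusted p under 0.05 was reached by 1 gene each of collecting duct, endothelium, fibroblasts with their companions, and lymphocytes. In edgeR, which called 29.2% of all genes (18.3% as rises, 11% as falls), 2 macrophage, 2 endothelial, 2 fibroblast-list and 1 collecting duct genes rose, and 1 collecting duct, 1 podocyte and 2 lymphocyte genes fell. In the plate C fit of the RM and Sham junction ROIs alone, which called 14.9% of all genes as rises and 25.7% as falls, 3 macrophage, 2 fibroblast-list, 1 endothelial and 1 erythroid gene rose. In that fit 3 collecting duct, 2 podocyte, 2 lymphocyte, 1 distal tubule and 1 endothelial gene fell. Summed macrophage signal was 209.98 to 261 in RM ROIs, against 166 to 260.4 in Sham ROIs. Of the 5 macrophage genes 4 had a change above 0, with a median of 0.27. C1qa and Csf1r had changes of 0.09 and -0.15. C1qb ranged from 41.1 to 56.0 in RM ROIs and from 22.4 to 53.9 in Sham ROIs, with overlap. Hba-a1, a globin of red cells, ranged from 485 to 1953 in RM ROIs and from 347 to 1023 in Sham ROIs, with wide overlap. The muscle genes Acta1 and Ckm were at background in nearly all ROIs. Aqp2, the water channel of the collecting duct, had 52.9, 62.7 and 68.0 in RM ROIs, against 85.3, 105 and 141 in Sham ROIs, without overlap but not called (-0.78 ± 0.28, adjusted p = 0.0938).

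The RM change at the junction was then set against the mean RM change of cortex, glomeruli and medulla, each over the Sham ROIs of the same area. At an adjusted p under 0.05, 92 of 8827 genes (1.04%) differed, 55 toward higher (0.623%) and 37 toward lower values at the junction (0.419%). Of the 429 rises 52 were in this set, and of the 69 falls 22. Plin2 differed by 3.02 ± 0.24 (adjusted p = 3.05e-21): its change was 3.75 at the junction, 1.07 in cortex, 0.97 in glomeruli and 0.14 in medulla. Havcr1 differed by 2.45 ± 0.20 (adjusted p = 3.39e-20), with changes of 0.87 in medulla, 1.43 in glomeruli and -0.02 in cortex. Cortex passed the test for Plin2 (adjusted p = 0.0021) and not for Havcr1 (adjusted p = 0.97).

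Of the 12 tested genes of gluconeogenesis and fructose use, 5 differed toward higher and 1 toward lower values at the junction. G6pc differed by 2.58 ± 0.25 (adjusted p = 9.82e-16), with changes of -0.24 in cortex, 0.03 in glomeruli and -0.25 in medulla. The RM medians were 236 in cortex and 316 at the junction, against Sham medians of 257 in cortex and 56.9 at the junction. Slc2a5 differed by 1.79 ± 0.20 and, outside that list, Pklr by 2.05 ± 0.20 and Acly by 2.0 ± 0.14 (adjusted p from 3.15e-24 to 4.10e-12). Pck1 differed by -2.54 ± 0.32 (adjusted p = 4.26e-10), with changes of -0.21 in cortex, -0.04 in glomeruli and 0.01 in medulla. In cortex it averaged 535 ± 198 in RM and 764 ± 472 in Sham ROIs (SD, n = 9 each), while the medians ran the other way, at 629 in RM and 504 in Sham ROIs.

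The sulfate transporter Slc26a1 and the monocarboxylate transporter Slc5a8 differed by 2.04 ± 0.21 and 1.88 ± 0.23. At the junction Slc26a1 had 138, 212 and 237 in RM ROIs, against 36.3, 45.4 and 56.3 in Sham ROIs, and Slc5a8 had 148, 219.9 and 259 in RM ROIs, against 49.3, 59.2 and 82.3 in Sham ROIs. Both were fully separated. Mat2a differed by -1.86 ± 0.17 (adjusted p = 3.07e-17), and it was called as higher in RM cortex (0.63) and glomeruli (0.87) and as lower at the junction. The kinase gene Pim3, Id4, Gramd1b and Ppm1k differed by -1.23, -1.47, -1.23 and -1.21. Gpx3, the secreted glutathione peroxidase made by proximal tubule, differed by -1.37 ± 0.34 (adjusted p = 0.0123), although its junction change of -0.71 ± 0.37 was not called, and its Sham run means of 135, 439 and 265 were far apart. When each well run was averaged, the differences of Pck1, Ppm1k, Gramd1b and Gpx3 kept their direction but not their call.

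**Figure D5:**
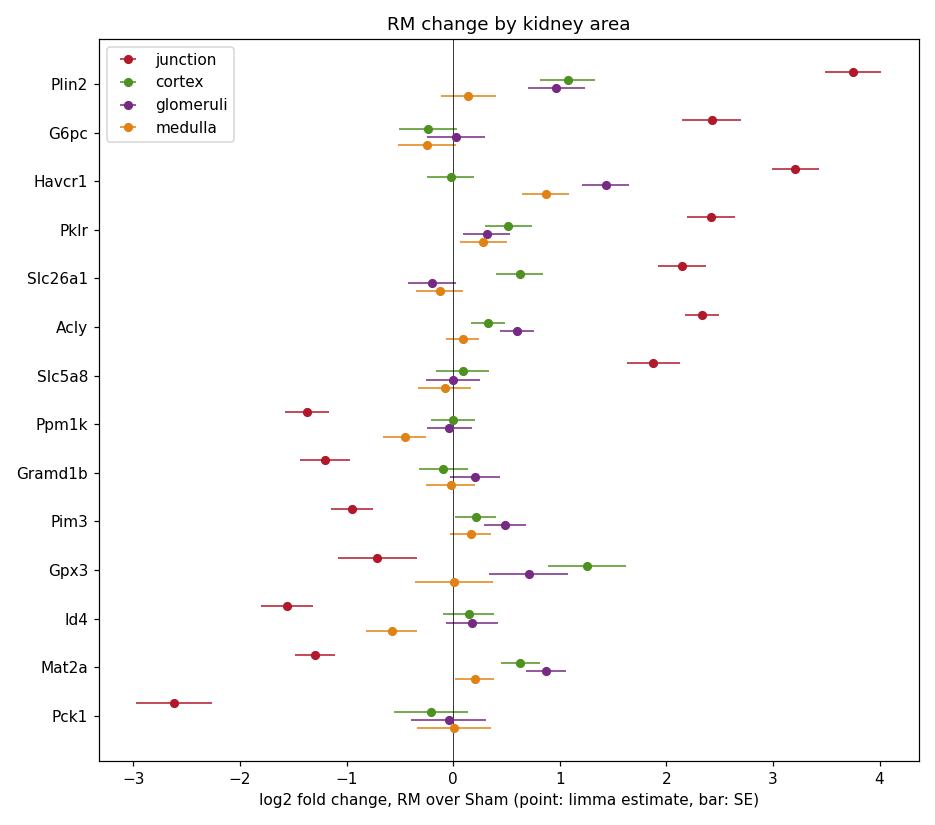
Log2 fold change, RM over Sham, at the junction and in cortex, glomeruli and medulla (points, limma estimates with bars of 1 SE) for genes from among the largest and smallest called differences between the junction and the mean of the other areas. The junction point lies apart from the other 3 for Plin2 (3.75 at the junction) and for Pck1 (-2.62 at the junction).

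Other strongly risen genes were not called in this test between areas. Mt2 rose by 2.52 at the junction, 2.12 in cortex, 2.46 in glomeruli and 2.55 in medulla, and the difference was 0.14 ± 0.21 (adjusted p = 0.984). Thbs1, Zfp36 and Spp1 differed by 0.22 ± 0.28, 0.25 ± 0.17 and 1.0 ± 0.33 (adjusted p = 0.974, 0.857 and 0.160). Pairwise, the junction change differed from that in cortex for 70 genes (0.793%), from glomeruli for 625 (7.08%) and from medulla for 140 (1.59%). Glomerular ROIs, which also enter the mean of the other areas, were far shallower than junction ROIs. Recovered reads were 88068 to 209188 in the fitted RM glomerular ROIs and 17894 to 130262 in Sham glomerular ROIs. The part of this depth in the counts was not tested.

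Levels in the other injury groups at the junction are given beside these, with no test here. Plin2 had medians of 567 in RM-HS (8 ROIs), 700.4 in RM, 105 in HS (9 ROIs) and 47.8 in Sham ROIs. Havcr1 had 371 in RM-HS, 419 in RM, 122 in HS and 45.2 in Sham ROIs. For Acly the medians were 113 in RM-HS, 265 in RM, 60.9 in HS and 54.3 in Sham ROIs, and for G6pc 89.9, 316, 99.2 and 56.9 in the same order. Pck1 had 217 in RM-HS, 58.7 in RM, 146 in HS and 511 in Sham ROIs, so RM had the lowest median. All HS ROIs lay on plate E.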

How the data were processed

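Kidney ROIs of rats were profiled with mouse whole-transcriptome probes on the GeoMx platform and sequenced, per the labels' protocols. The deposited table holds signal for 9271 genes and 1 negative probe in 132 ROIs, which the authors had scaled to the 75th percentile of each ROI (Q3). That percentile is the same in every ROI. The aligner, the counting software and their versions are not given in the sources used here. The submitters' processing notes name human genome builds, whose role is not stated, and no coordinate from them is used. Whole reads could be recovered for all gene values within 0.001 reads, and their totals give the depth. They were used only for edgeR.

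A gene was tested if at least 10% of ROIs had over 2 times their negative-probe value, which 8827 genes met (444 did not). Log2(signal + 1) was fitted in limma 3.58.1 (R 4.3.3, statmod 1.5.0) with 16 means of injury and area, a plate term, and the well run (ROIs in consecutive wells, which the labels do not tie to an animal) as a random block with a correlation of 0.132. The exception was RM-HS run 3, whose medulla wells lay apart from its other wells, with Sham wells between them. HS and RM-HS ROIs share the fit, and the single plate A ROI, RM glomeruli, was left out, leaving 131. Variances were moderated with a trend, tests were two-sided, p-values were adjusted by Benjamini-Hochberg over all tested genes, and calls are at an adjusted p under 0.05. The scripts were tested on simulated data. Fold changes are on the log2(signal + 1) scale. Gene names are those of the table, of which 8048 of the tested occur as rat symbols in RefSeq (assembly GRCr8). Promoter sequences are from RefSeq.

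Named genes are Havcr1, Plin2, Pck1 and Acly, the 15 largest rises and 15 largest falls among called genes, up to 5 called members of each of 34 lists (or the member with the lowest p), and the 8 largest and 8 smallest called differences between areas. Other list members named in the text, called or not, were chosen after their values were seen, and a few genes are not reported here. The comparison, the members and the lists were chosen with earlier results of these data known. Nothing in the labels says that ROIs of a group came from separate animals each. Settings tried instead were 5 as pseudocount, tests of unfiltered genes, a filter at 50% of ROIs, quantile normalization, plate C alone, no plate term, no well-run block, 1 mean per well run and area, junction ROIs alone, RM and Sham junction ROIs alone (all or plate C), edgeR 4.0.16 on recovered reads, and each well run left out.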

Additional observations from a re-analysis of the deposited data

Results flagged for a closer look

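In 10 of 212 tests of the named genes, 1 per gene and group, a single junction ROI lay far from the rest of its group by Dixon's test. Chance alone gives this in about 5% of groups. Among RM ROIs the lowest value stood apart for Slc26a1 (137.57, next 195.57), Aldoa (236.64, next 272.66), Atp5b (373.01, next 504.23), Socs3 (32.424, next 49.923) and Rps3 (148.8, next 178.09), and the highest for Slc8a1 (64.68, next 49.333). Among Sham ROIs the lowest value stood apart for Zfand2a (29.607, next 40.996) and S100a11 (32.547, next 48.3), and the highest for Timp3 (204.08, next 160.65) and Fmo5 (37.906, next 31.939).

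For 31 genes named by the stated rule the RM change at the junction differed from the mean RM change of the other areas by a test of that difference (limma over ROIs, adjusted p from 3.15e-24 to 0.0325), 20 toward higher and 11 toward lower values at the junction. Higher at the junction were Plin2 (3.02), G6pc (2.58), Havcr1 (2.45), Pklr (2.05), Slc26a1 (2.04), Acly (2.0), Slc5a8 (1.88), Cryab (1.85), Slc2a5 (1.79), Sqstm1 (1.29), Btg2 (1.19), Tkfc (1.14), Zfand2a (1.05), Rcan1 (0.92), Myc (0.91), Asns (0.82), Abcc2 (0.79), Slc17a3 (0.76), Atf4 (0.67) and Pgam1 (0.56). Lower at the junction were Pck1 (-2.54), Mat2a (-1.86), Id4 (-1.47), Gpx3 (-1.37), Pim3 (-1.23), Gramd1b (-1.23), Ppm1k (-1.21), Akr1c19 (-1.02), Camk2n1 (-1.01), Klf15 (-0.89) and Ppp1r1a (-0.76). These values are differences of log2 changes, and the ROIs of each group come from 3 rats, so the p-values are too small. The naming rule itself took the largest and smallest called differences of this test, so the count of 31 was partly set by that rule. Other genes were named for a called change at the junction, which is a term of the difference. Over all tested genes, 92 of 8827 (1.04%) differed.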

How the results depend on the processing

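The count of genes called in RM against Sham at the junction was 498 (429 up, 69 down) and was within 1.5 times of that with a pseudocount of 5, no filter, a filter at 50% of ROIs, no plate term, no well-run block and junction ROIs alone. It was 777 with quantile normalization (543 up, 234 down), 942 on plate C alone (697 up, 245 down), 183 with 1 mean per well run and area, 3661 with RM and Sham junction ROIs alone (1344 up, 2317 down), 3579 with those of plate C (1312 up, 2267 down) and 2581 in edgeR on recovered reads (1612 up, 969 down). Leaving out each well run gave 238 (without Sham run 1) to 761 (without HS run 3). The number of genes whose change differed between the junction and the other areas was 92 (55 up, 37 down). It was 155 with quantile normalization, 171 on plate C alone (81 up, 90 down), 18 with 1 mean per well run, 273 in edgeR (197 up, 76 down), and within 1.5 times without any single run. With the filter at 50% of ROIs the split was 57 up and 65 down. Quantile normalization moved the median log2 change of all tested genes to -0.04, from -0.12. Of the 498 called genes 147 were called in all 24 alternatives. Of 122 named results 70 kept direction and call throughout, and of 2868 alternative values 169 lost a call, 46 gained one and 2 changed sign. These 2 were Gpx3, 0.11 without Sham run 2, and Hba-a1, -0.0038 with quantile normalization, neither of them called. Gpx3 was -0.71 with all runs, also not called, and -1.39 without Sham run 1, where it was called (limma, adjusted p = 0.0415). Averaging each well run ended 37 named calls, among them those of Timp3, Igfbp1, Sod1, Hspa5 and Hspe1, and leaving out Sham run 1 ended 25. Hsp90ab1 was 0.69 and not called without Sham run 1. The cause of these shifts was not tested. No paired analysis was possible because the labels give no replicate numbers that pair RM with Sham ROIs. Up to 3 ROIs per run limit the precision, and dim genes near the negative probe limit what can be seen.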
